A study of Mus musculus with 12 samples.

Results

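The 10 genes described here are a set used to follow natural killer (NK) cells: Klrk1, Klrb1c, Klrd1, Klrc1, Klrc2, Klre1, Ncr1, Nkg7, Eomes and Tbx21. They were chosen by name, as the rows of the count table whose gene name matched exactly, and all 10 were found among 43698 rows. All 10 also passed the filter on low counts, which left 19525 genes for testing. Of the 10, only Nkg7, Eomes and Tbx21 do not encode receptors: Nkg7 encodes a granule membrane protein, and the other two encode transcription factors.

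Whole tumours were sequenced. They had grown subcutaneously in C57BL/6J mice aged 8 weeks from MC38, an established cell line of mouse colon carcinoma. The 6 groups had 2 libraries each. The RP group received 20 µg of Ru-PD-L1, the antibody-catalyst conjugate against the checkpoint ligand PD-L1, into the peritoneum. The R+X group received Ru-PD-L1 and, 6 hours later, 14 µg of DOX (doxorubicin) beside the tumour. The R+D group received Ru-PD-L1 and, 6 hours later, 14 µg of DPD beside the tumour. The DOX and DPD groups received 14 µg of the drug alone into the peritoneum, and Ctrl mice received PBS. Dosing began on day 9 and was repeated every 3 days, and tumours were taken on day 20. The labels do not spell out the codes: RP was read as Ru-PD-L1, the last letter of R+X and R+D as DOX and DPD, and DPD as the DOX prodrug that the study's title names. Route and combination cannot be told apart, since injection beside the tumour was used in R+X and R+D alone. The dose of the conjugate in R+X and R+D was not stated. Each library title carries its own code, which the labels do not explain. Separate mice are not named for the 2 libraries of a group, and if they share a mouse the p-values reflect spread within a mouse only.

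NK cells kill without prior priming, and their response is set by the balance of activating and inhibitory receptors. Klrk1 encodes NKG2D, an activating receptor for ligands that stressed and transformed cells display. Ncr1 encodes the activating receptor NKp46, and Klrb1c encodes NK1.1, the surface marker by which NK cells are sorted in C57BL/6 mice. Klrd1 encodes CD94, which pairs with NKG2A (Klrc1, inhibitory) or NKG2C (Klrc2, activating) to read the non-classical MHC molecule Qa-1. T-bet (Tbx21) and Eomes are the T-box factors of NK cell development. Most of these genes are also used by cytotoxic CD8 T cells, so none of them except Ncr1 and Klrb1c is a close marker of NK cells alone, and innate lymphoid or NKT cells can carry even those. In bulk tissue, a difference in the number of cells of a type and one in the RNA per cell cannot be told apart.

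Levels are given in CPM, counts scaled to a common library size with edgeR's TMM factors. Library totals ran from 46547114 to 56462259 counts. Behind each value stood 55 to 285 counts for Klrk1, 8 to 50 for Ncr1 and 164 to 810 for Nkg7, so Ncr1 and Klrc2 (0 to 31 counts) carry the largest counting error among the receptors. Per kilobase of exon (union of GENCODE exons), the median level over libraries was 6.80 CPM for Nkg7, 1.99 for Klrd1, 1.40 for Eomes and 1.21 for Klrc1. On the same scale it was 0.381 for Klrk1, 0.352 for Tbx21, 0.351 for Klrb1c, 0.266 for Ncr1, 0.171 for Klre1 and 0.0229 for Klrc2.

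Of the 10 genes, 6 lie in the NK gene complex on chromosome 6 (GRCm38, RefSeq, all protein coding). There Klrb1c spans 128778485 to 128788641, Klre1 129559365 to 129585828 and Klrd1 129588092 to 129598775. Klrk1 follows at 129610323 to 129623903, Klrc2 at 129649602 to 129660737 and Klrc1 at 129666015 to 129682852. Ncr1 (4337715 to 4345184) and Nkg7 (43437138 to 43438246) are on chromosome 7, Eomes on chromosome 9 (118478186 to 118486132) and Tbx21 on chromosome 11 (97098007 to 97115331).

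Promoter windows, from 250 bases before to 50 after a transcript's start, were available from RefSeq (GRCm38.p6) for 9 of the 10 genes. The windows were searched on both strands for TGTGGT, the core motif of RUNX factors. They were also searched for GGTGTG, the core motif of T-box factors such as T-bet and Eomes. At least 1 TGTGGT stood in a window of 7 of the 9 genes (Klrk1, Klrb1c, Klrc1, Klrc2, Klre1, Ncr1 and Nkg7), against 18.9% of the 27025 genes with a window. GGTGTG stood in the window of 1 of the 9, Nkg7, against 21.4% of all genes. The longer T-box motif AGGTGTGA was also in the Nkg7 window and in 1.48% of all genes. Klrc1 and Klrc2, which are close relatives, were counted as separate genes. Matches describe the letters of these windows and are not evidence of binding. Windows with matches are printed for Nkg7 and for 5 of the receptor genes. That of Klre1, whose match stood in only 1 of its windows, is not printed. Capitals mark TGTGGT or GGTGTG on either strand, so that ACCACA is TGTGGT read on the other strand.
Klrk1, chr6:129623815-129624114, minus strand: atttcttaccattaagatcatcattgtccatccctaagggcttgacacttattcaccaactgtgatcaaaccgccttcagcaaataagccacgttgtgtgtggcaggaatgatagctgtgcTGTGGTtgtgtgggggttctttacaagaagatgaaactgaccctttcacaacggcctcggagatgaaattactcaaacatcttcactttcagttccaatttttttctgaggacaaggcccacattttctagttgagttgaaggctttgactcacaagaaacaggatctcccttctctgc
Klrb1c, chr6:128788592-128788891, minus strand: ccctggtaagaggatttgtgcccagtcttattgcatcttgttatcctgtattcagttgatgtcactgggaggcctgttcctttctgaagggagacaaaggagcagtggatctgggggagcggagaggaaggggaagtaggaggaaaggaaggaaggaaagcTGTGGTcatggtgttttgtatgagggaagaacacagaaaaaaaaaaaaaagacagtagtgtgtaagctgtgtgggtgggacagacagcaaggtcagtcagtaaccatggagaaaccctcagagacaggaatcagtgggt
Ncr1, chr7:4337465-4337764, plus strand: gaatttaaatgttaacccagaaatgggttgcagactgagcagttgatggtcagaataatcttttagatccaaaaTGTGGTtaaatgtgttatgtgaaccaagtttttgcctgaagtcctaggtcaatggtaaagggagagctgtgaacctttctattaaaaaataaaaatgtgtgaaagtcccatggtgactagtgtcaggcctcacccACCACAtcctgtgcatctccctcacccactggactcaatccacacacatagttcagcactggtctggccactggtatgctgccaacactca
Klrc1, chr6:129678924-129679223, minus strand: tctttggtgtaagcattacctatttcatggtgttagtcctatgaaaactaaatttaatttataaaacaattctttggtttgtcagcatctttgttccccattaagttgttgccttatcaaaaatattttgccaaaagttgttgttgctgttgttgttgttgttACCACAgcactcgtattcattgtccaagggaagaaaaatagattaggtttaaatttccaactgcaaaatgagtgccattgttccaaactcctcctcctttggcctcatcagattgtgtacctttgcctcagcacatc
Klrc2, chr6:129660507-129660806, minus strand: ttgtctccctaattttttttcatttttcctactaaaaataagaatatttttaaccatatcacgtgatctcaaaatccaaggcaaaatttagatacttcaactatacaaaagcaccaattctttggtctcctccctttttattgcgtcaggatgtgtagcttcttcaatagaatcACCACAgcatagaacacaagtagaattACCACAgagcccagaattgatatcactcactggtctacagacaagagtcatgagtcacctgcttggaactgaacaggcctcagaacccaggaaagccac
Nkg7, chr7:43436888-43437187, plus strand: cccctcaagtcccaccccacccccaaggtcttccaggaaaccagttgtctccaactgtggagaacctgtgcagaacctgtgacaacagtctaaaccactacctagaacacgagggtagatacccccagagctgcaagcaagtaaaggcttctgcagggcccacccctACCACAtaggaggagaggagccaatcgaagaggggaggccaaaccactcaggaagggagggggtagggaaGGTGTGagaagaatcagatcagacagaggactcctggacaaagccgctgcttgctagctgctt

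Among activating receptors, Klrk1 was present at 5.06 and 4.71 CPM in RP, 2.17 and 1.53 in R+X, and 3.30 and 4.30 in R+D. It stood at 1.21 and 1.54 CPM in DOX, 3.12 and 4.30 in DPD, and 2.35 and 1.67 in Ctrl. Both RP libraries lay above all others, the R+D and DPD libraries came next and overlapped each other, and R+X, DOX and Ctrl formed a lower range. The order of group means was RP, R+D, DPD, Ctrl, R+X and DOX. Only RP against R+D and DPD against Ctrl, among neighbours in that order, did not overlap.

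Klrb1c, the NK1.1 gene, was at 2.07 and 2.00 CPM in RP, 0.828 and 0.497 in R+X, and 1.58 and 1.49 in R+D. In DOX it was at 0.419 and 1.03 CPM, in DPD at 1.05 and 1.28, and in Ctrl at 0.824 and 0.650. RP, R+D and DPD stood in separate steps, each above the next, and Ctrl, DOX and R+X overlapped below them.

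Ncr1 departed from this order. Its levels were 0.941 and 0.611 CPM in RP, 0.166 and 0.210 in R+X, and 0.239 and 0.702 in R+D. Levels of 0.397 and 0.709 CPM were found in DOX, 0.423 and 0.727 in DPD, and 0.255 and 0.209 in Ctrl. The DOX libraries, lowest on average for Klrk1, here overlapped RP and DPD, and the R+D libraries were split, with replicate 1 at the Ctrl level. No neighbours in the order RP, DPD, DOX, R+D, Ctrl and R+X were separated.

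The CD94 gene Klrd1 was at 5.01 and 7.91 CPM in RP, 2.42 and 2.08 in R+X, and 2.64 and 5.68 in R+D. Its DOX values were 2.07 and 1.62 CPM, its DPD values 2.46 and 3.42, and its Ctrl values 2.79 and 2.46. RP lay above R+X, DOX, DPD and Ctrl, while R+D replicate 1 lay inside the Ctrl range and R+D replicate 2 inside the RP range.

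Klrc1, the inhibitory partner, followed at 3.75 and 5.83 CPM in RP, 2.32 and 2.16 in R+X, and 2.50 and 6.01 in R+D. Its level was 1.68 and 2.31 CPM in DOX, 3.40 and 4.52 in DPD, and 2.12 and 2.11 in Ctrl. The highest library was R+D replicate 2, and the R+D group spanned the range from just above R+X to just above RP.

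Klrc2, the activating partner, was near the limit of detection, with 14 and 31 counts in RP, 6 and 4 in R+X, and 20 and 16 in R+D. It had 0 and 7 counts in DOX, 4 and 19 in DPD, and 4 and 5 in Ctrl. The count of 0 in DOX replicate 1 allows a level of up to 0.0662 CPM (3 counts). Counts of Klrc2 made up 6.57% and 8.07% of Klrc1 plus Klrc2 in RP, 5.08% and 3.42% in R+X, and 12.8% and 5.21% in R+D. The shares were 0% and 5.79% in DOX, 2.12% and 7.63% in DPD, and 3.57% and 5.21% in Ctrl. They spread widely within R+D, DOX and DPD, and the exact 95% binomial intervals, which cover counting error only, ran from 0 to 4.74% in the lowest library (DOX replicate 1) and from 8.01 to 19.1% in the highest (R+D replicate 1). Klrc1 and Klrc2 are close relatives, and the table held a further row named as a copy of Klrc1 (3 to 36 counts), so reads of these genes may have been split and their single values are uncertain.

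Klre1, whose product pairs with KLRI1 or KLRI2 in mice, had 1.51 and 1.16 CPM in RP, 0.662 and 0.268 in R+X, and 0.588 and 1.40 in R+D. It had 0.507 and 0.547 CPM in DOX, 0.606 and 0.884 in DPD, and 0.569 and 0.487 in Ctrl. R+D was again split, with replicate 2 at the RP level and replicate 1 next to Ctrl.

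Nkg7, a gene of cytotoxic granules, had 12.1 and 10.7 CPM in RP, 5.71 and 3.98 in R+X, and 6.92 and 16.7 in R+D. It had 4.15 and 3.32 CPM in DOX, 8.64 and 5.89 in DPD, and 6.14 and 6.29 in Ctrl. Its highest library was R+D replicate 2, and the DOX group held the lowest value.

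The 2 transcription factors behaved differently from each other. Tbx21 stood at 2.05 and 1.34 CPM in RP, 0.848 and 0.402 in R+X, and 1.40 and 1.47 in R+D. For DOX the values were 0.706 and 0.486 CPM, for DPD 0.772 and 0.924, and for Ctrl 0.628 and 0.905. RP and R+D overlapped above all DPD, Ctrl, R+X and DOX libraries. Eomes was nearly flat, at 5.46 and 6.54 CPM in RP, 6.44 and 5.41 in R+X, and 5.84 and 5.54 in R+D. It was at 6.44 and 6.22 CPM in DOX, 4.72 and 6.17 in DPD, and 5.20 and 5.76 in Ctrl. Its highest library exceeded its lowest 1.38-fold, against 3.59-fold for Klrc1 and 5.69-fold for Ncr1.

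**Figure D1:**
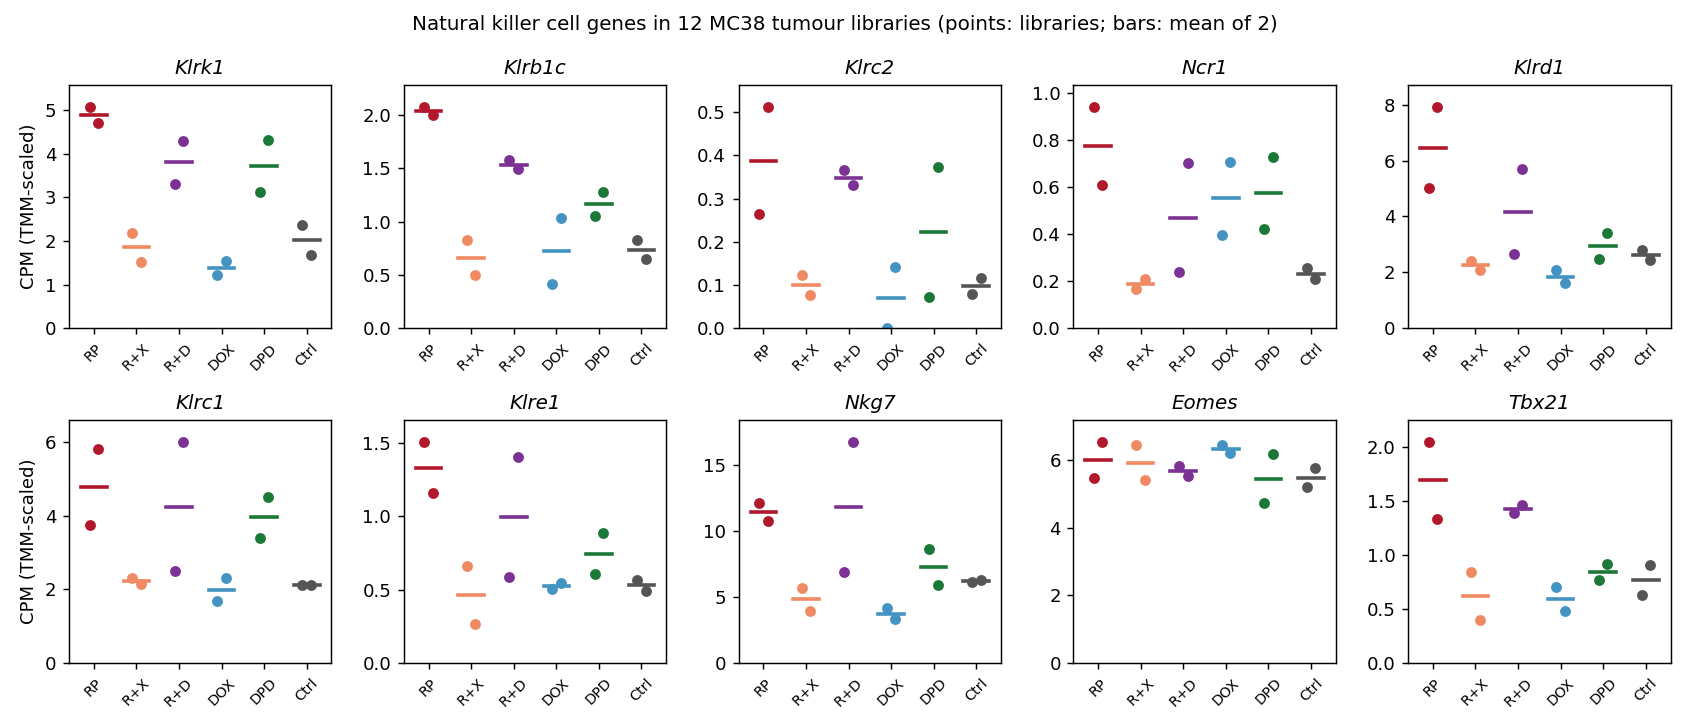
Level of each of the 10 genes (vertical axis, CPM from 0) in the 6 groups (horizontal axis); points are libraries and bars the mean of 2. For Klrk1 both RP libraries (5.06 and 4.71 CPM) lie above all others, and for Eomes all 12 libraries lie between 4.72 and 6.54 CPM.

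Apart from Eomes and, in part, Ncr1, the genes moved together over the 12 libraries. Pearson's r of log2 CPM between pairs of the other 8 genes ran from 0.58 to 0.91 (median 0.814, 28 pairs). For deviations from the group means it ran from -0.378 (Klrc2 with Nkg7) to 0.839 (Klrd1 with Klrc1), with a median of 0.426 and 5 of 28 pairs below 0, a description of the spread between the 2 libraries of each group. Ncr1 gave 0.412 to 0.721 with these 8 genes, and Eomes gave -0.287 to 0.161 with the other 9. These values describe 12 libraries that share their scaling and treatments, and carry no test. By the same measure the 8 genes most like the mean of the 10 were Il18bp (0.967), Il2rb (0.964), Igtp (0.962), Gpr132 (0.962), Jchain (0.953), Gimap3 (0.948), Zbp1 (0.947) and Cd3g (0.945), among 12345 genes compared. Il2rb encodes the receptor chain shared by IL-2 and IL-15, Il18bp a binding protein of IL-18, and Cd3g a chain of the T cell receptor complex. Il2rb ranged over libraries from 9.22 to 30.5 CPM and Il18bp from 6.20 to 17.2 CPM.

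What the conjugate alone did was asked by comparing RP with Ctrl. All 10 genes had positive log2 fold changes, as did 53.9% of all genes tested. For 9 of them the groups did not overlap, where 32.3% of all genes were higher and 27.1% lower without overlap. None passed the test: 0 of 10 reached an adjusted p under 0.05 in edgeR's quasi-likelihood fit, where 0.0154% of all genes passed, and adjusted p ran from 0.128 to 0.734. At an unadjusted p under 0.05, 8 of the 10 were higher and 0 lower, against 12% and 9.38% of all genes. The median log2 fold change was 1.29, against 0.0577 over all genes tested. DESeq2 called 2 of the 10 higher, Klrk1 and Klrd1, where it called 1132 genes in all (6.94% of those it tested).

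By size, Klrk1 averaged 4.89 ± 0.253 CPM in RP and 2.01 ± 0.483 in Ctrl (SD, n = 2 each), a log2 fold change of 1.28 ± 0.31 (95% interval 0.59 to 1.96; edgeR adjusted p = 0.128). Klrb1c averaged 2.04 ± 0.0515 CPM in RP and 0.737 ± 0.123 in Ctrl, a change of 1.46 ± 0.45 (edgeR adjusted p = 0.157). Both differences were larger than the spread of the libraries shown, although neither passed the correction. Klrd1 stood at 1.3 ± 0.38 and Klrc1 at 1.18 ± 0.40 on the log2 scale, with edgeR adjusted p of 0.154 and 0.173. The NKp46 gene Ncr1 was at 1.73 ± 0.65 and Klre1 at 1.33 ± 0.55 (edgeR adjusted p = 0.188 and 0.208). Tbx21 was at 1.14 ± 0.44 and Nkg7 at 0.87 ± 0.38 (edgeR adjusted p = 0.195 and 0.22). The interval of Klrc2, at 1.98 ± 1.13, ran from -0.52 to 4.48, and that of Eomes, at 0.13 ± 0.22, from -0.36 to 0.62.

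With DOX added to the conjugate, levels were lower than with the conjugate alone, although no gene passed the test in edgeR. In R+X against RP all 10 genes had negative log2 fold changes, where 49.6% of all genes had positive ones (median -1.48, against -0.00291 over all genes), and 9 were lower without overlap, where 23.7% of all genes were. In edgeR 0 of 10 passed (0% of all genes; adjusted p from 0.252 to 0.998), 8 of 10 were lower at an unadjusted p under 0.05 (6.43% of all genes), and DESeq2 called 2, Klrk1 and Klrd1, among 307 genes in all (1.76% of those it tested). Klrk1 averaged 1.85 ± 0.455 CPM in R+X and 4.89 ± 0.253 in RP, a log2 fold change of -1.40 ± 0.31 (edgeR adjusted p = 0.252). Klrd1 averaged 2.25 ± 0.238 CPM in R+X and 6.46 ± 2.05 in RP (-1.52 ± 0.38; edgeR adjusted p = 0.278). The change of Ncr1 was -2.03 ± 0.65, of Klrb1c -1.62 ± 0.45, of Klre1 -1.52 ± 0.55 and of Tbx21 -1.44 ± 0.45. Nkg7 was at -1.24 ± 0.38, Klrc1 at -1.10 ± 0.40, Klrc2 at -1.93 ± 1.12 and Eomes at -0.02 ± 0.22.

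Against Ctrl, the R+X values lay on both sides of 0. In that comparison 3 of the 10 log2 fold changes were positive (50.6% of all genes) and 7 negative, with a median of -0.17 against 0.00743 over all genes. Of the 10, 0 passed edgeR (0% of all genes) or DESeq2 (0.00967%), and 0 had an unadjusted p under 0.05 (3.53% of all genes higher, 2.47% lower). Klrc1 was higher (28.5% of all genes) and Klrd1 and Nkg7 lower (27.5%) without overlap. Klrk1 stood at -0.12 ± 0.31, with a 95% interval from -0.81 to 0.56, and Nkg7 at -0.36 ± 0.38, from -1.19 to 0.47. The test missing its threshold does not show that the levels were alike. The median was 0.132 without R+X replicate 2 and -0.361 without R+X replicate 1, and -0.0964 and -0.30 without Ctrl replicates 1 and 2.

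With the prodrug in place of DOX, levels of the combined group were higher for all of the genes except Eomes, although no gene passed the test. In R+D against R+X 9 of 10 genes had positive log2 fold changes (50.7% of all genes; median 1.15, against 0.00430 over all genes), and 8 were higher without overlap, where 22.5% of all genes were. In edgeR 0 of 10 passed (0% of all genes; adjusted p from 0.859 to 1), 6 of 10 were higher at an unadjusted p under 0.05 (3.75% of all genes), and DESeq2 called 0 (0.227% of all genes). Nkg7 averaged 11.8 ± 6.94 CPM in R+D and 4.84 ± 1.23 in R+X, a log2 fold change of 1.29 ± 0.38 (edgeR adjusted p = 0.859). Klrk1 averaged 3.80 ± 0.702 CPM in R+D and 1.85 ± 0.455 in R+X (1.04 ± 0.31; edgeR adjusted p = 0.867). Klrb1c was at 1.21 ± 0.45, Tbx21 at 1.20 ± 0.45, Klrc1 at 0.92 ± 0.40 and Klrd1 at 0.88 ± 0.38. Ncr1 was at 1.3 ± 0.66, Klre1 at 1.10 ± 0.55, Klrc2 at 1.78 ± 1.12 and Eomes at -0.06 ± 0.22. Without R+D replicate 2 the median over the 10 genes was 0.42.

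In R+D against Ctrl all 10 log2 fold changes were positive (53.3% of all genes; median 0.92, against 0.0441 over all genes). Without overlap 7 genes were higher and 0 lower, where 30.8% and 27.4% of all genes were. The edgeR fit passed 0 of 10 (0% of all genes; adjusted p from 0.314 to 0.908), with 4 higher and 0 lower at an unadjusted p under 0.05 (8.69% and 6.66% of all genes) and 0 called by DESeq2 (1.29% of all genes). Those 4 were Klrk1 (0.91 ± 0.31), Klrb1c (1.05 ± 0.44), Klrc1 (1.00 ± 0.40) and Nkg7 (0.93 ± 0.38). Klrd1 (0.66 ± 0.38) and Ncr1 (1.00 ± 0.65) overlapped Ctrl. Leaving out R+D replicate 2 took the median to 0.184 and Klrd1 to -0.00204. Compared with RP, R+D gave negative values for 9 of 10 genes, where 50.7% of all genes were positive (median -0.30, against 0.00340 over all genes), with Klrd1 at -0.64 ± 0.37. There 2 genes, Klrk1 and Klrb1c, were lower without overlap (13.6% of all genes), and 0 passed in edgeR (0% of all genes), at an unadjusted p under 0.05 (0.784% higher, 1.95% lower) or in DESeq2 (0.0193%). Without R+D replicates 1 and 2 in turn that median was -0.162 and -0.629.

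**Figure D2:**
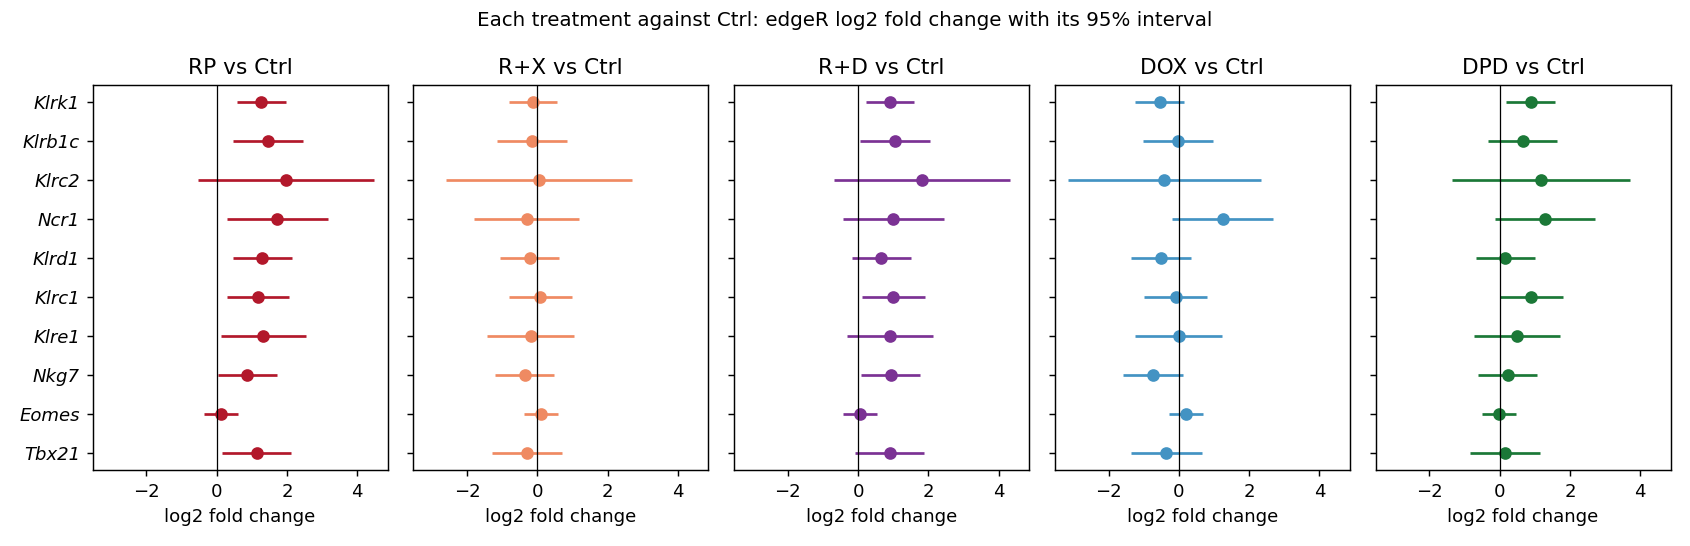
Log2 fold change (horizontal axis) of the 10 genes in each treatment against the shared Ctrl libraries, with 95% intervals from the edgeR fit. In RP 9 of the 10 points lie above 0.8 and Eomes at 0.13, while in R+X all points lie between -0.36 and 0.11.

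The drugs were also compared alone, DPD with DOX at the same dose of 14 µg and by the same route. Of the 10 genes, 9 had positive log2 fold changes (47.6% of all genes; median 0.67, against -0.0179 over all genes). Without overlap 7 were higher in DPD (13.4% of all genes) and 1, Eomes, was lower (10.4%). Klrk1 averaged 3.71 ± 0.834 CPM in DPD and 1.38 ± 0.23 in DOX, a log2 fold change of 1.43 ± 0.31 (95% interval 0.73 to 2.13). Its unadjusted p was the 8th smallest of all 19525 genes, but the edgeR adjusted p was 0.979. Klrc1 averaged 3.96 ± 0.792 CPM in DPD and 1.99 ± 0.447 in DOX (0.99 ± 0.40), and Nkg7 7.26 ± 1.94 in DPD and 3.73 ± 0.584 in DOX (0.96 ± 0.38). Klrb1c and Klrd1 were both at 0.67, with standard errors of 0.45 and 0.38. These 3 genes, Klrk1, Klrc1 and Nkg7, were higher at an unadjusted p under 0.05 (3.01% of all genes), and 0 of 10 passed edgeR (0% of all genes) or DESeq2 (0.0258%). Without DPD replicate 2 the median was 0.388. R+D and R+X contrast the same drugs given by another route with the conjugate, and whether the 2 contrasts differ was not tested.

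Against Ctrl, DPD gave positive log2 fold changes for 9 of 10 genes (51.3% of all genes; median 0.57, against 0.0140 over all genes), and 5 were higher without overlap (20.4% of all genes). The median was 0.333 without DPD replicate 2. Klrk1 stood at 0.88 ± 0.31, Klrc1 at 0.90 ± 0.40 and Ncr1 at 1.29 ± 0.65, and only Klrk1 and Klrc1 were higher at an unadjusted p under 0.05 (2.61% of all genes). DOX against Ctrl gave 8 negative and 2 positive values (51.4% of all genes positive; median -0.22, against 0.00998 over all genes). Klrk1 was at -0.55 ± 0.31 and Nkg7 at -0.74 ± 0.38, both lower without overlap, as was Klrd1 (9.43% of all genes). Ncr1 went the other way, averaging 0.553 ± 0.22 CPM in DOX and 0.232 ± 0.0327 in Ctrl (1.24 ± 0.65), and Ncr1 and Eomes were higher without overlap (8.29% of all genes). In both comparisons 0 of 10 passed edgeR (0% of all genes) or DESeq2 (0.0129% in DPD, 0.00322% in DOX), and in DOX 0 of 10 had an unadjusted p under 0.05 (0.860% of all genes higher, 1.22% lower). The DOX median was 0.0866 without DOX replicate 1 and -0.114 without Ctrl replicate 2. The comparisons with Ctrl share the same 2 Ctrl libraries and are not independent.

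Groups with the conjugate and a drug were compared with the same drug alone as well. The route of the drug also differed, beside the tumour with the conjugate and into the peritoneum without it. Conjugate and route cannot be told apart here. In R+D against DPD, 9 of 10 values were positive (51.4% of all genes; median 0.41, against 0.00753 over all genes), with Nkg7 at 0.70 ± 0.37 and Tbx21 at 0.75 ± 0.44. Only Klrb1c and Tbx21 were higher without overlap (14.5% of all genes). The median was -0.12 without R+D replicate 2 and 0.0387 without DPD replicate 1. In R+X against DOX 6 of 10 values were positive (48.9% of all genes; median 0.12, against -0.00714 over all genes), with Klrk1 at 0.43 ± 0.31. Ncr1 averaged 0.188 ± 0.0317 CPM in R+X and 0.553 ± 0.22 in DOX, a log2 fold change of -1.54 ± 0.66, and was the one gene with an unadjusted p under 0.05 (1.04% of all genes were lower at that level). Klrd1 was higher (15.3% of all genes) and Ncr1 lower (13.5%) without overlap. The median was -0.0719 without R+X replicate 1, 0.346 without R+X replicate 2 and -0.0547 without DOX replicate 1. In R+D against DPD 0 of 10 had an unadjusted p under 0.05 (1.52% of all genes higher, 0.789% lower), and in both comparisons 0 of 10 passed edgeR (0% of all genes) or DESeq2 (0.0193% in R+D against DPD, 0.00322% in R+X against DOX).

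Averaged over the 3 settings, the conjugate groups (6 libraries) were set against the 3 groups without it (6 libraries). In the settings with a drug, its route differed as well. Log2 fold changes were positive for 9 of 10 genes (53.4% of all genes; median 0.58, against 0.0285 over all genes). Klrd1 averaged 4.29 ± 2.31 CPM with the conjugate and 2.47 ± 0.613 without it (0.70 ± 0.22; edgeR adjusted p = 0.175), and Klrk1 3.51 ± 1.43 with it and 2.37 ± 1.17 without it (0.58 ± 0.18; edgeR adjusted p = 0.175). Tbx21 was at 0.66 ± 0.26, Nkg7 at 0.65 ± 0.22 and Klrb1c at 0.57 ± 0.26. These 5 were higher at an unadjusted p under 0.05, as were 10.9% of all genes, while Ncr1 stood at -0.04 ± 0.36. In edgeR 0 of 10 passed (0.0154% of all genes), and DESeq2 called 0 (5.69% of all genes). In 0 of 10 genes were the 6 and 6 libraries without overlap, against 0.236% of all genes higher and 0.0768% lower. The edgeR count of 0 did not hold without DOX replicate 2. That fit left DOX with 1 library and passed many more genes of all kinds, so nothing particular to the 10 genes is read from it.

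Markers of T cells and skeletal muscle moved with these genes. For the other cell types, signs and medians in some comparisons are given, without a correlation. Of 15 T cell markers, the receptor constant genes Trbc1 and Trbc2 were at 0 in all 12 libraries and Trac in 11. The markers summed to 53.7 to 54.7 CPM in RP, 14.8 to 28.0 in R+X and 34.9 to 54.6 in R+D. Their sums were 17.3 to 18.7 CPM in DOX, 30.9 to 35.2 in DPD and 23.7 to 30.0 in Ctrl. All 12 T cell markers tested were higher in RP than in Ctrl by log2 fold change (median 1.36, 0 of 12 passing edgeR). The mean log2 CPM of the 10 genes had r = 0.943 with that of the T cell markers and r = 0.85 with that of 20 muscle markers over the 12 libraries, given as descriptions. Muscle markers summed to 203 to 411 CPM in RP, 96.4 to 112 in R+X and 127 to 499.6 in R+D (replicate 2 the highest). They summed to 85.9 to 129.7 CPM in DOX, 107 to 118 in DPD and 117 to 142 in Ctrl. Eno3 alone gave 70.1 to 113 CPM of each sum. By log2 fold change 19 of 20 muscle markers were positive in RP against Ctrl (median 2.70). In R+X against RP 0 of 20 were (median -2.93), and 0 passed edgeR in either comparison. In RP against Ctrl 6 of 6 endothelial markers tested were positive (median 0.943), 5 of 5 of B cells (median 0.981), 4 of 4 of neutrophils (median 2.04) and 6 of 7 of dendritic cells (median 0.976). In R+X against RP all of these were negative, with medians of -0.707, -1.42, -1.84 and -0.708 in that order, and 0 passed edgeR in either comparison. Red blood cell markers were negative in 5 of 5 tested in RP against Ctrl (median -1.79), in R+X against Ctrl (median -2.38) and in R+X against RP (median -0.592), with 0 passing edgeR. Macrophage markers were positive in 5 of 9 in RP against Ctrl (median 0.28) and in 1 of 9 in R+X against RP (median -0.308). Fibroblast markers were positive in 3 of 6 in each (medians 0.131 and 0.0947). Skin markers were positive in 9 of 10 and 1 of 10 (medians 2.84 and -2.34). Their mean log2 CPM was -1.49 in RP replicate 1 and 3.57 in RP replicate 2. In these 3 lists 0 passed edgeR. For every marker list the share to set beside it is that of all genes tested. That share positive was 53.9% in RP against Ctrl, 50.6% in R+X against Ctrl and 49.6% in R+X against RP. When the mean of the muscle markers was added to the fit, the median of the 10 genes in RP against Ctrl was 0.669, and with the mean of the T cell markers it was 0.491. For R+X against RP the medians were -0.814 and -0.566. For R+D against R+X they were 0.317 and 0.487, for R+D against Ctrl 0.263 and 0.422, for DPD against DOX 0.593 and 0.0861, and for the averaged conjugate 0.182 and 0.153. The part of these cell types in the differences was not tested.

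**Figure D3:**
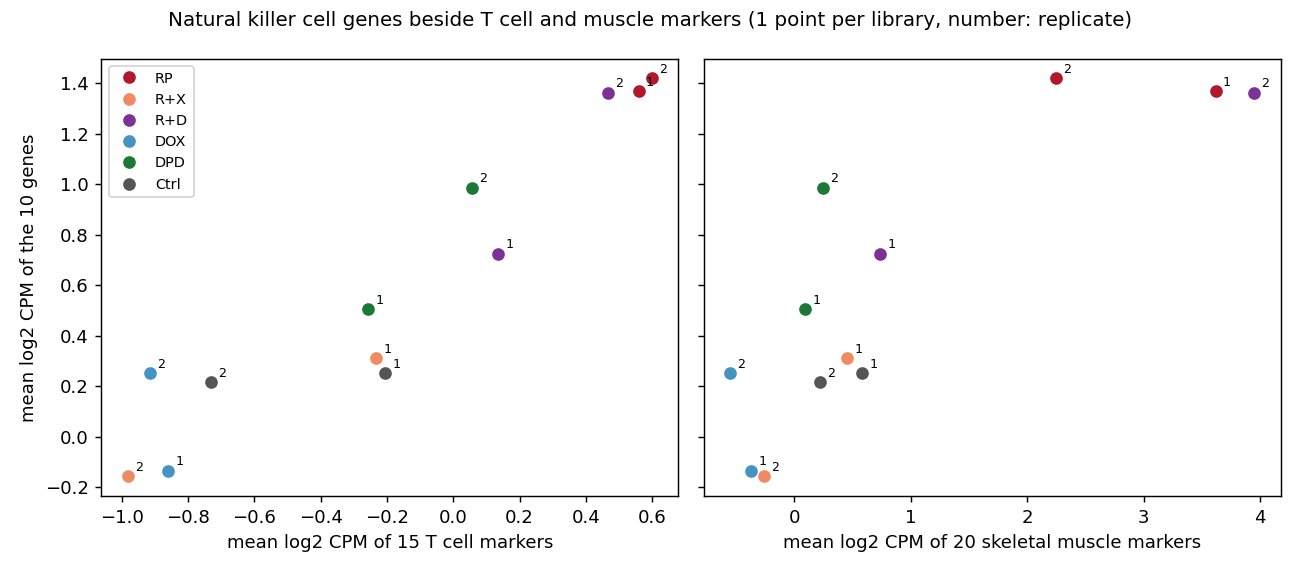
Mean log2 CPM of the 10 genes (vertical axis) against that of 15 T cell markers (left) and 20 skeletal muscle markers (right), 1 point per library with its replicate number. RP replicates 1 and 2 and R+D replicate 2 lie at the top right of both panels, and R+X replicate 2 and DOX replicate 1 lie lowest in both.

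Markers of NK cells outside the 10 genes were 6 genes of the Klra (Ly49) receptor family, Styk1 and Txk. Of these 8, 7 had positive log2 fold changes in RP against Ctrl (median 1.98, 0 passing edgeR), where 53.9% of all genes did. In R+X against Ctrl 4 did (median 0.112, 0 passing edgeR), where 50.6% of all genes did. The exception in RP was Klra4, singled out after its values were seen. It was listed at 41.7 and 50.9 CPM in RP, 50.3 and 49.8 in R+X, 48.3 and 47.9 in R+D, 57.2 and 60.4 in DOX, 53.8 and 49.9 in DPD, and 54.6 and 69.6 in Ctrl. Its relatives Klra1, Klra3, Klra7, Klra8 and Klra9 stayed under 1 CPM in every library, and near-identical copies make all Klra counts uncertain. Klra8, the gene of the Ly49H receptor, had 0.810 and 0.429 CPM in RP, against 0.216 and 0.0696 CPM in Ctrl.

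Other receptors associated with NK cells leaned the same way in RP: 21 of 22 had positive log2 fold changes (median 0.90), 9 at an unadjusted p under 0.05, and 0 passed edgeR. Of all genes tested, 53.9% were positive there (median 0.0577), and 12% were higher at that unadjusted level. Il18r1, a chain of the IL-18 receptor, averaged 3.75 ± 0.35 CPM in RP and 0.644 ± 0.254 in Ctrl (2.53 ± 0.43; edgeR adjusted p = 0.113). Il2rb averaged 29.1 ± 1.96 CPM in RP and 11.5 ± 0.271 in Ctrl (1.34 ± 0.28; edgeR adjusted p = 0.127). Slamf7, an activating receptor of NK cells, was at 0.76 ± 0.21 and Cd244a, the 2B4 gene, at 0.60 ± 0.28. In R+D against Ctrl 18 of 22 were positive (53.3% of all genes; median 0.66), and in R+X against Ctrl 11 of 22 (50.6% of all genes; median -0.0313), again with 0 passing edgeR. In those comparisons Il18r1 stood at 1.22 ± 0.42 in R+D and 0.74 ± 0.42 in R+X, and Tigit, an inhibitory receptor, at 0.71 ± 0.40 in R+D and 0.72 ± 0.40 in R+X. Averaged over the conjugate groups Tigit was at 34.3 ± 3.52 CPM, and over the groups without it at 27.9 ± 11.95 (0.33 ± 0.23).

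A list of cytotoxic products and of genes for cytokines that NK cells make or respond to gave similar values. In RP against Ctrl 16 of 17 tested were positive (median 1.12), 9 at an unadjusted p under 0.05, and 0 passed edgeR. Of all genes tested, 53.9% were positive there, and 12% were higher at that unadjusted level. Prf1, the perforin gene, averaged 27.9 ± 12.6 CPM in RP and 7.62 ± 1.88 in Ctrl (1.87 ± 0.39). Il15ra, which presents IL-15 to NK cells, averaged 32.4 ± 0.734 CPM in RP and 16.1 ± 3.43 in Ctrl (1.00 ± 0.22). Il15 itself was at 0.15 ± 0.18, so the presenting chain and the cytokine differed in size of change. In R+D against Ctrl 14 of 17 were positive (53.3% of all genes; median 0.90) and in R+X against Ctrl 8 of 17 (50.6% of all genes; median -0.0978). Prf1 was at 1.50 ± 0.38 in R+D and 0.72 ± 0.38 in R+X.

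Adaptors and ligands had smaller medians. Of 12 signalling adaptors, 10 were positive in RP against Ctrl (median 0.38), 5 in R+D (median -0.0817) and 2 in R+X (median -0.32), and 0 passed edgeR in each. Of all genes tested, 53.9%, 53.3% and 50.6% were positive in that order. Hcst, the adaptor of NKG2D, averaged 2.27 ± 0.111 CPM in RP and 1.79 ± 0.423 in Ctrl. Tyrobp, the DAP12 gene, averaged 38.4 ± 14.4 CPM in RP and 39.4 ± 5.51 in Ctrl, and is also used by myeloid cells. Cd247, the zeta chain that signals for NKp46 and the T cell receptor, was at -1.54 ± 0.46 in R+X against Ctrl, with a mean of 0.465 ± 0.279 CPM in R+X and 1.35 ± 0.0249 in Ctrl (edgeR adjusted p = 0.575). Zap70, the kinase that the zeta chain recruits, was at 1.00 ± 0.31 in RP and 0.76 ± 0.31 in R+D against Ctrl. Sh2d1b1, another of the 12 adaptors, went the other way, at -1.05 ± 0.39 in RP and -0.63 ± 0.39 in R+D against Ctrl.

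Of 16 ligand genes 9 were tested, and 4 were positive in RP (median -0.16), 2 in R+D (median -0.19) and 3 in R+X (median -0.20) against Ctrl, with 0 passing edgeR. The shares of all genes positive were 53.9%, 53.3% and 50.6% in that order. Among ligands of NKG2D, Ulbp1 averaged 8.06 ± 2.13 CPM in RP, 6.99 ± 0.207 in R+X, 8.26 ± 0.673 in R+D and 2.59 ± 1.89 in Ctrl, for log2 fold changes of 1.63 ± 0.72, 1.43 ± 0.71 and 1.67 ± 0.72. Over the 6 libraries with the conjugate Ulbp1 averaged 7.77 ± 1.17 CPM, and over the 6 without it 4.72 ± 3.50 (0.82 ± 0.40). Raet1e averaged 27.5 ± 0.146 CPM in RP and 37.3 ± 4.23 in Ctrl (-0.44 ± 0.17). H2-T23, which encodes the Qa-1 ligand of CD94 and NKG2A, averaged 129.7 ± 2.33 CPM in RP and 106 ± 0.202 in Ctrl (0.29 ± 0.21). The Raet1 and H60 genes have close copies, and Raet1e is uncertain for that reason.

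**Figure D4:**
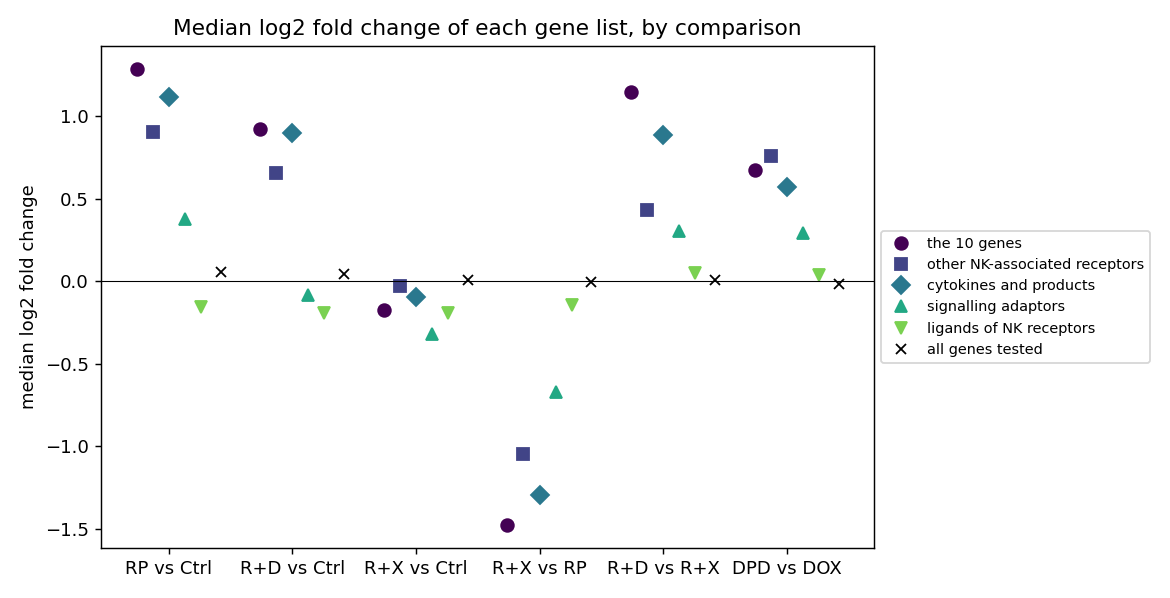
Median log2 fold change (vertical axis) of the 10 genes and of 4 related lists in 6 comparisons (horizontal axis), with crosses for all genes tested. In RP against Ctrl the 10 genes are at 1.29, cytokines and products at 1.12 and ligands at -0.16; in R+X against RP the 10 genes are at -1.48.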

How the data were processed

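Gene counts of 12 tumour libraries were analysed. The deposited files hold raw counts per gene as whole numbers, and all 12 single-library files matched their columns in the combined table. HISAT2 2.1.0, StringTie 1.3.5, DESeq2 and the build GRCm38 come from the submitters' processing notes. Not given in the sources used here are what each tool did, the annotation and the strand setting; reads of genes that overlap, or lie antisense to each other, may therefore be mixed.

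A single quasi-likelihood model of edgeR 4.0.16 (R 4.3.3) was fitted to 12 libraries of 6 groups after TMM scaling and filterByExpr, which left 19525 genes and 6 residual degrees of freedom (biological coefficient of variation 0.257). All 12 comparisons are contrasts of it. The threshold was 0.05 for p adjusted by Benjamini-Hochberg over all genes tested, and values after ± on the log2 scale are standard errors. Correlations and marker means used log2 CPM with a prior count of 2. The labels number no replicates; 1 and 2 are only names. The genes and lists were chosen with earlier results of these data known. Beside the 10 genes, the text could name up to 4 genes per list of smallest p with a mean of at least 1 CPM, and the 8 genes most like the 10; Il15, Hcst, Tyrobp, H2-T23, Klra4 and Klra8 were chosen after their values were seen. Alternatives were RLE scaling, no filter, DESeq2 1.42.0, the compared groups alone, each library left out, and muscle and T cell means as covariates. Added after seeing the data was a fit without RP replicate 1 and R+D replicate 2, the libraries richest in muscle markers. The edgeR step was tested on simulated counts.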

Additional observations from a re-analysis of the deposited data

How the results depend on the processing

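The number of the 10 genes called was 0 in all 12 comparisons with edgeR, and also with RLE scaling, without the low-count filter and with either covariate, and in the 11 comparisons of 2 groups fitted with only the compared groups. It was 0 for the averaged conjugate without RP replicate 1 and R+D replicate 2, the muscle-rich libraries (median 0.411). DESeq2 called 2 in RP against Ctrl and 2 in R+X against RP. With 1 library left out the edgeR number stayed at 0, except for the averaged conjugate without DOX replicate 2. That fit passed many more genes of all kinds.

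None of the 120 fold changes (10 genes, 12 comparisons) had passed. Of these 120, signs turned in 15 with the muscle covariate, 23 with the T cell covariate, 1 with RLE scaling and 43 in at least 1 fit without a library; they turned in 0 without the filter or with DESeq2, and in 0 of 105 with only the compared groups. Without a library they turned in 8 genes in R+D against DPD, in 6 each in R+X against Ctrl, R+X against DOX and R+D against RP, in 5 in DPD against Ctrl, in 4 in DOX against Ctrl and in 1 or 2 elsewhere; the cause was not tested. With either covariate 8 of 10 were positive in R+D against Ctrl, Klre1 being at -0.0483 with the muscle one, and Klre1 at -0.40 and Eomes at -0.108 with the T cell one. Those whose values the report prints were as follows. With the muscle covariate, log2 fold changes were -0.0345 for Nkg7 in RP against Ctrl, -0.0378 for Ncr1 in R+D against Ctrl, 0.0119 for Eomes in R+D against R+X, -0.222 for Nkg7 in R+D against DPD and -0.0316 for Nkg7 over the averaged conjugate. With the T cell covariate, Klre1 was at -0.338 and Eomes at -0.0902 in RP against Ctrl, Klre1 at -0.294 in R+D against R+X, and Klre1 at 0.232 and Eomes at 0.224 in R+X against RP. With 1 library left out, Eomes ranged from -0.0171 to 0.219 in RP against Ctrl, from -0.188 to 0.0499 in R+D against R+X and from -0.118 to 0.127 in R+X against RP. Klrk1 ranged from -0.394 to 0.15 in R+X against Ctrl, Klrd1 from -0.00204 to 1.09 in R+D against Ctrl, Nkg7 from -0.0791 to 1.18 in R+D against DPD, and Ncr1 from -0.371 to 0.141 over the averaged conjugate. Fits without a library leave its group with a lone sample, assumed to vary like the other groups. No paired analysis was possible because the labels number no replicates. Low counts limit Klrc2 and Ncr1 most.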
